A study of Homo sapiens with 6 samples.

Results

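DNA double-strand break (DSB) clusters of cells treated with camptothecin (CPT) for 20 min are described here. In each of the 2 END-seq libraries of this treatment (CPT20), a reverse-strand peak was joined to its closest forward-strand peak when the forward peak overlapped it or started less than 150 bp downstream, and each joined span, merged where spans overlapped, was taken as one DSB site. Sites of one replicate that overlapped a site of the other were merged into a cluster. This gave 2790 clusters on chromosomes 1 to 22, out of 84786 sites in replicate 1 and 18506 sites in replicate 2 on these chromosomes, and out of 262171 sites in the 4 treated libraries of the series. The cells were HCT116, an established human epithelial line from a colorectal carcinoma. The series holds 2 libraries each of untreated cells (Ctrl), of cells given 10 µM CPT for a shorter time, and of cells given 10 µM CPT for 20 min. The sample labels of CPT20 give the number 20 as a concentration in µM, whereas the treatment protocol gives 10 µM for 20 min, and the protocol was followed. Untreated cells entered only as the input of the peak caller, which was run without a local background, and each list shows 1 expected height for all its peaks. A peak was thus not set against the untreated signal at its own position, no untreated list is analysed here, and breaks present before CPT cannot be told apart from those that followed it. The replicates are 2 biological replicates, mouse pre-B cells were added to every sample as a spike-in, and no test between groups over samples could be made with 1 group of 2 libraries.

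Topoisomerase I relaxes the torsional stress that moving RNA and DNA polymerases build up by nicking one strand and staying bound to its 3′ end until the strand is sealed. CPT wedges into this cleavage complex and keeps it from resealing. A polymerase or a second nick that meets such a trapped complex can turn it into a DSB. END-seq ligates an adapter directly to the blunted ends of DSBs in agarose-embedded cells and reads outward from them, so a break with 2 ends gives reverse-strand reads on its left and forward-strand reads on its right.

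The junction of a cluster in a library is the point midway between 2 edges of its best pair. These are the right edge of the reverse peak and the left edge of the forward peak. The peaks of the best pair overlapped at 83.7% of clusters in replicate 1 and 75.5% in replicate 2. There the junction is a midpoint of edges that cross and not a gap between peaks. Of 928 clusters that lay in a protein-coding gene, over 1 Mb from large assembly gaps and 0 to 5 kb downstream of the nearest protein-coding 5′ end, outside a chromosome from which no sequence is printed, 238 had the junctions of both libraries within 100 bp of each other. Clusters were ordered by the worse of their ranks in both libraries, where a site ranks by the −log10 q of its best pair. Of the first 6 of these whose window lay inside the canonical transcript of a gene with a symbol and held no untranslated exon, 5 are printed. Each run is 200 bases of hg19 on the sense strand of the gene, and capitals mark the bases between the junctions of both libraries. The 5 clusters were 1052 to 4126 bp wide, so the capitals do not give the bases at which DNA broke. Their closeness between libraries was part of the choice.
KPNA2, chr17:66032876-66033075: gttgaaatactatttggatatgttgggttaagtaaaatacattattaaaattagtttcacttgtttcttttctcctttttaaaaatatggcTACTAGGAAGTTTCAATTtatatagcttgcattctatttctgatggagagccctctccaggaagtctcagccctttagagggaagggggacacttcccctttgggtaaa
YWHAG, chr7:75986238-75986437: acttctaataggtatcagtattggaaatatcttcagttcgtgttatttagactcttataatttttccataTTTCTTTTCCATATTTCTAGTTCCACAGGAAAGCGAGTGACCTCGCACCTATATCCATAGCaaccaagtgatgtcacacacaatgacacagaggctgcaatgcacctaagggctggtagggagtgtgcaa
CYSTM1, chr5:139555766-139555965: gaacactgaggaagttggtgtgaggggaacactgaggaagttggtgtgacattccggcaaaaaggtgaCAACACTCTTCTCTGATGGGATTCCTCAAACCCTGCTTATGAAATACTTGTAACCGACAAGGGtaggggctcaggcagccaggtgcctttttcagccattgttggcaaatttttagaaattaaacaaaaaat
RPL29, chr3:52029120-52029319: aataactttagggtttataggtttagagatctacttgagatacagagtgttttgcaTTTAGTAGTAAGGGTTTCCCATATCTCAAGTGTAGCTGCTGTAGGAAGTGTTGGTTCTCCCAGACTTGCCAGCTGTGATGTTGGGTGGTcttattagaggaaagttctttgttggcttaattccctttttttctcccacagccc
RPL19, chr17:37356956-37357155: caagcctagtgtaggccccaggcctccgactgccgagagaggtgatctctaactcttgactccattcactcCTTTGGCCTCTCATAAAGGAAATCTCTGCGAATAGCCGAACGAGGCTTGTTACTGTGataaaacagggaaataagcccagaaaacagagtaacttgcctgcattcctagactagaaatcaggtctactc
KPNA2 encodes an importin that carries proteins into the nucleus, YWHAG a 14-3-3 adaptor protein, CYSTM1 a small membrane protein, and RPL29 and RPL19 proteins of the large ribosomal subunit. The windows of KPNA2, YWHAG, CYSTM1 and RPL19 lay in intron 1, and that of RPL29 ran across an exon and an intron. Their centres were 1124, 1971, 1092, 692 and 519 bp downstream of the canonical 5′ end, in the order printed. The junctions of the replicates were 16.5 bp apart in KPNA2 and 87.0 bp apart in RPL29, the ends of the range of these 5. GC content ran from 35.5% in KPNA2 to 48% in RPL19, and no excess of G over C on the sense strand was shared by all 5, since G bases numbered 39 against 32 C bases in KPNA2 and 43 against 53 in RPL19.

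The lists differed in length. Replicate 1 had 611627 forward and 610218 reverse peaks, and replicate 2 had 288607 and 286491. The read depth of a peak at its summit, recovered as a whole number from the deposited fold enrichment, started at 5 reads in every list, with a median of 9 reads in replicate 1 and 7 in replicate 2. Only 2983 sites of replicate 1 (3.52%, 95% Wilson interval 3.40 to 3.64) and 3062 sites of replicate 2 (16.5%, 16.0 to 17.1) lay in clusters, so most sites of either library were not seen in the other. Intervals of this kind cover counting error only. The sites that were shared had higher peaks: the median −log10 q of a pair, taken as the smaller of both strands, was 6.89 in clusters and 2.90 elsewhere in replicate 1, and 4.90 and 2.58 in replicate 2.

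Clusters had a median width of 960 bp (quartiles 645 and 1461 bp), and 340 of them (12.2%) were wider than 2000 bp. Together they covered 3.38 Mb. In the best pair of a cluster the lower and upper of the 2 strand summits had medians of 12 and 20 reads in replicate 1 and 9 and 13 reads in replicate 2. The summed height of both summits was a median of 1.44 times higher in replicate 1 (quartiles 1.11 and 1.85), and both summits were higher in replicate 1 at 1474 clusters (52.8%) and in replicate 2 at 182 (6.52%). Across clusters, the −log10 q of the replicates had a Spearman correlation of 0.487, given as a description, since clusters share their libraries. At 153 clusters the lower summit reached 20 reads in both libraries, and at 680 it stayed under 10 reads in both. The junctions lay a median of 206 bp apart between replicates, and 782 clusters (28.0%) had them within 100 bp.

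Clusters were found mostly in genes, and near 5′ ends more often than the bases of the genome are. Of the 2790 midpoints, 2334 fell inside an annotated gene (83.7%, 82.2 to 85), against 63.0% of the sequenced bases of chromosomes 1 to 22, and 2027 inside a protein-coding gene (72.7%, 71 to 74.3), against 46.5% of bases. With respect to the nearest protein-coding 5′ end, taken as the outermost 5′ end of each gene, 1003 clusters (35.9%, 34.2 to 37.7) lay 0 to 5 kb downstream, where 3.17% of bases lie. Upstream over the same distance there were 255 (9.14%, 8.13 to 10.3), against 3.03% of bases. With the 5′ end of the canonical transcript, an alternative chosen after the data were seen, the downstream share was 43.2% and the upstream share 6.20%. The share per 500 bp was highest from 1000 to 1500 bp downstream, with 169 clusters (6.06%), and the first 500 bp downstream held 66 (2.37%). Over the 1592 clusters within 10 kb of a 5′ end, the median position was 1673 bp downstream. A further 648 clusters (23.2%, 21.7 to 24.8) lay over 50 kb from any protein-coding 5′ end.

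Of the clustered sites, 36.8% (35.1 to 38.5) in replicate 1 and 37.0% (35.3 to 38.8) in replicate 2 lay 0 to 5 kb downstream, values that the rule ties together because clustered sites of both libraries lie at the same places. Among the sites that were not shared, the downstream share was 8.86% (8.67 to 9.06) in replicate 1 and 7.94% (7.52 to 8.38) in replicate 2, below the shared sites and above the 3.17% of bases. The downstream share also fell along the order of the clusters. When the ordered clusters were cut into 4 equal groups, it was 44.1% (40.5 to 47.8) in the first group, 41.9% in the second group, 33.9% in the next and 23.9% (20.9 to 27.2) in the last. The sets differ in peak height as well as in being shared, and the part of each was not tested.

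**Figure D1:**
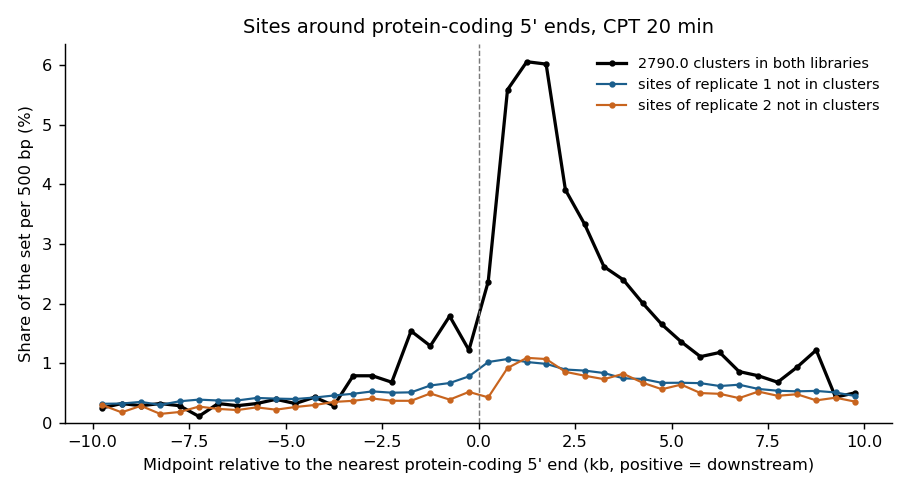
Share of each set (% per 500 bp, y axis) by the position of the midpoint relative to the nearest protein-coding 5′ end (kb, x axis, positive downstream). The black line shows the 2790 clusters, which reach 6.06% per 500 bp between 1000 and 1500 bp downstream, and the coloured lines show the sites of either library that were not shared.

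Inside genes, the first intron held more clusters than its length would give. Of 1887 clusters whose midpoint lay in the canonical transcript of the assigned gene, 801 (42.4%, 40.2 to 44.7) were in the first intron, which makes up 23.1% of the bases of such transcripts. Later introns held 778 (41.2%, 39.0 to 43.5) against 70.9% of bases. Coding exons held 149 (7.90%) against 2.85% of bases, 3′ untranslated exons 139 (7.37%) against 2.90%, and 5′ untranslated exons 20 (1.06%) against 0.324%. Of the 2027, a further 135 lay outside the canonical transcript, and 5 lay in a canonical transcript without a coding part or in a gene without a canonical transcript.

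How much of a gene a cluster spanned depended on its length. In the 203 clusters of canonical transcripts under 5 kb, the median share of the transcript covered was 43.3%, 95 clusters (46.8%) covered at least 50% of it, and 77 (37.9%) ran past its 3′ end. In the 611 clusters of transcripts of 5 to 20 kb the median share covered was 11.2% and 40 (6.55%) ran past the 3′ end. In the 759 clusters of transcripts of 20 to 100 kb it was 2.02%, and the midpoint lay at a median of 0.09 of the transcript length from the 5′ end. In the 329 clusters of transcripts of 100 kb and over, the share covered was 0.437% and the median position 0.28 of the length.

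Of 19229 protein-coding genes, 1588 (8.26%) held the midpoint of a cluster, and 984 (5.12%) held one 0 to 5 kb downstream of their own 5′ end. Any base of a cluster touched 1695 (8.81%). Of 41992 other annotated genes, most of them noncoding, 355 (0.845%) held a midpoint. Taken alone, the sites of replicate 1 fell in 68.9% of protein-coding genes and those of replicate 2 in 30.5%. One cluster was held by 1196 of the 1588 genes, 2 clusters by 249 and 3 by 76, and the remaining genes held 4 to 16.

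The 20 protein-coding genes whose clusters came first in the order, leaving out regions within 1 Mb of large gaps, had no summit under 23 reads on either strand of either library. In 17 of the 20 the midpoint lay 0 to 5 kb downstream of the canonical 5′ end, in 10 the cluster covered at least 50% of the canonical transcript, and in 16 it was wider than 2000 bp. Both summits were higher in replicate 1 than in replicate 2 in 17 of the 20. In 5 of them the surrounding 1 Mb had at least 1.5 times the median peak density in both libraries.

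The cluster of HSPA8, the constitutive cytosolic HSP70 chaperone, spanned chr11:122929278-122933170 and 76.7% of the transcript. Its reverse and forward summits were 80 and 74 reads in replicate 1 and 47 and 55 in replicate 2. The genes of the cytoplasmic actins stood beside it. ACTG1, gamma-actin, had summits of 133 and 91 reads in replicate 1 and 46 and 44 in replicate 2 over 97.4% of its transcript, in a 1 Mb bin with 2.49 times the median peak density. ACTB, beta-actin, had 57 and 42 reads and 53 and 28 reads over 94.8% of its transcript, where the density was 0.995 times the median. Both actin clusters ran past the 3′ end of the transcript, by 2110 bp in ACTG1 and 838 bp in ACTB.

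H3-3B, which encodes the replacement histone H3.3, was covered whole by a cluster of 7049 bp that ran 3285 bp past its 3′ end, with summits of 69 and 87 reads in replicate 1 and 48 and 37 in replicate 2. H2AC15, a replication-dependent H2A gene of the chromosome 6 histone cluster, was covered whole too and shared its cluster with its neighbour H2BC15. Its forward summits of 109 and 53 reads stood above its reverse summits of 57 and 23 reads in both libraries. GAPDH, a glycolytic enzyme, had 39 and 45 reads in replicate 1 and 24 and 35 in replicate 2 over 71.3% of its transcript. MAT2A, which makes S-adenosylmethionine, had 54 and 38 reads and 27 and 29 reads over 68.3%.

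Genes of RNA handling and translation followed. HNRNPA1, a nuclear RNA-binding protein of pre-mRNA processing, had summits of 68 and 49 reads in replicate 1 and 55 and 35 in replicate 2 at 1266 bp from the 5′ end. RPLP0, a stalk protein of the large ribosomal subunit, had 35 and 34 reads and 32 and 34 reads. EIF4A2, a helicase of translation initiation, had 49 and 34 reads and 41 and 29 reads in a cluster that also held the small nucleolar RNA gene SNORD2. In ENSG00000267168, an unnamed protein-coding locus of annotation, the 6419 bp cluster also overlapped SRSF2, METTL23 and MFSD11, so the counts cannot be given to 1 of these genes.

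Growth-signal and stress genes were also among the 20. EGR1, a zinc-finger transcription factor induced within minutes of growth stimulation, had 39 and 45 reads in replicate 1 and 26 and 52 in replicate 2 over 83.0% of its transcript. ERRFI1, a feedback inhibitor of the EGF receptor, had 40 and 42 reads and 59 and 36 reads at 1638 bp from the 5′ end, and was higher on the reverse strand in replicate 2. ZFP36L1, which destabilises AU-rich mRNAs, had 71 and 50 reads and 44 and 34 reads at 933 bp. CRIP1, which encodes a small LIM-domain protein, had higher reverse than forward summits in both libraries, with reverse summits of 110 and 54 reads and forward summits of 50 and 39 reads.

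A few of the 20 lay otherwise. The first in order, in SENP5, a SUMO protease, was a cluster of 156 bp in a later intron 30911 bp from the canonical 5′ end, at chr3:196625624-196625779. Its summits of 376 and 355 reads in replicate 1 and 281 and 188 in replicate 2 were the highest of the 20 on both strands and in both libraries. No blacklist of hg19 regions was applied here, so this cluster was not checked against one. The cluster of VMP1, an autophagy protein, was the widest of all 2790 at 12930 bp, lay over the 3′ end of the gene and 6369 bp beyond it, and held the gene of the microRNA MIR21. The cluster of RIPK1, a kinase of death-receptor signalling, had its midpoint at −279 bp from the canonical 5′ end. That of RCC1, the nucleotide exchange factor of Ran, spanned the small nucleolar RNA host gene SNHG3 and its SNORA73B, with 81 and 76 reads in replicate 1 and 42 and 67 in replicate 2.

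**Figure D2:**
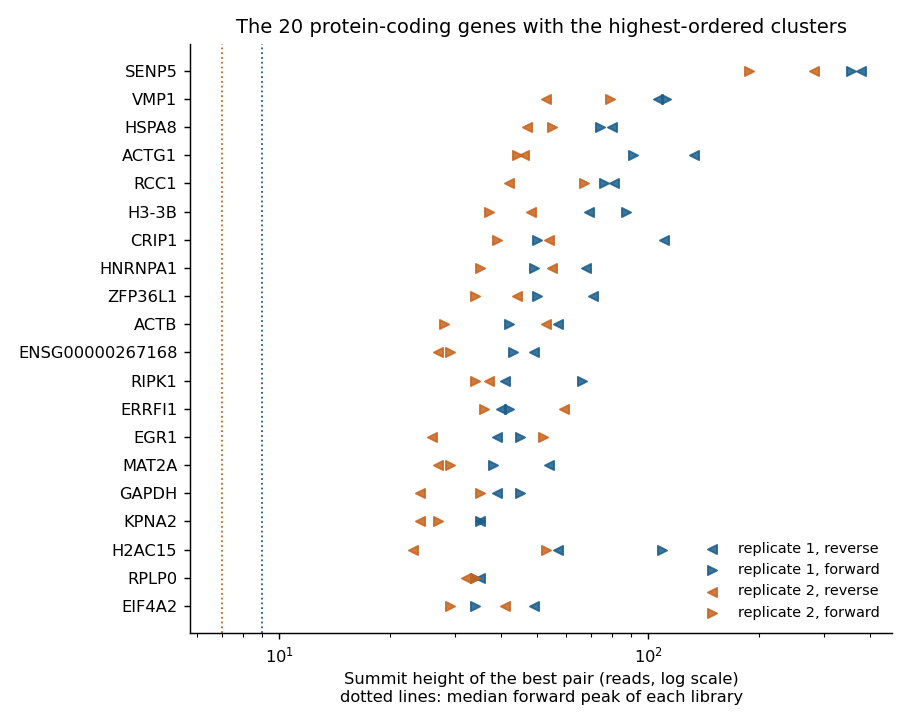
Summit height in reads (x axis, log scale) of the best reverse (left-pointing) and forward (right-pointing) peak of the first cluster of each of 20 protein-coding genes (y axis), in replicate 1 (blue) and replicate 2 (orange). Dotted lines mark the median forward peak of each library, 9 and 7 reads, and every one of the 20 genes lies to the right of them.

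The peaks themselves are drawn for the first 4 of these genes that lie on the plus strand, bear a symbol, have a canonical transcript under 10 kb and have the midpoint 500 to 5000 bp downstream of its 5′ end, which are HNRNPA1, EGR1, MAT2A and GAPDH. In HNRNPA1 the highest reverse peak of replicate 1 ran from −302 to 2038 bp around the 5′ end and a forward peak from 167 to 1657 bp, and in replicate 2 the highest ones ran from 914 to 2038 bp and from 1186 to 3030 bp. The peaks of both strands overlapped in both libraries.

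**Figure D3:**
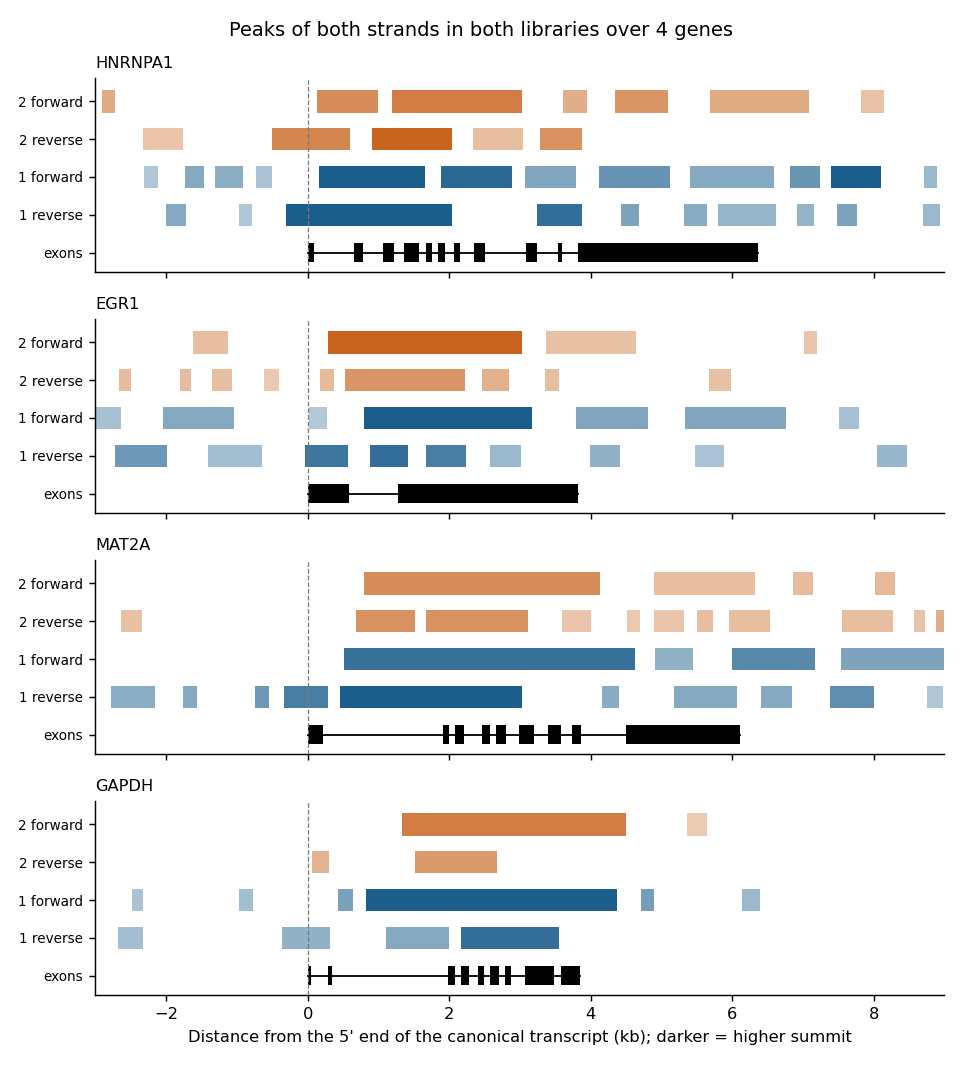
Peaks of both strands in both libraries (rows, darker for higher summits) by distance from the canonical 5′ end (kb, x axis) of HNRNPA1, EGR1, MAT2A and GAPDH, with exons as black boxes. The clusters have widths of 3529, 3218, 4173 and 3395 bp, and peaks of both strands and both libraries lie on each of the 4 gene bodies.

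Gene lists of known function were set beside the 8.26% of all protein-coding genes. Each is described by the number of its members annotated on chromosomes 1 to 22 that held a midpoint, with no test. The lists overlap in a few genes, and 238 of the 673 genes of the 25 lists written gene by gene held a midpoint.

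Most genes of the ribosome held a cluster. Of 75 genes of cytoplasmic ribosomal proteins, 65 (86.7%, 77.2 to 92.6) held a cluster, 61 of them (81.3%) 0 to 5 kb downstream of the gene's 5′ end, against 5.12% of all protein-coding genes. In each library alone, 72 of the 75 (96.0%) held a site in replicate 1 and 68 (90.7%) in replicate 2. Of all protein-coding genes, 68.9% and 30.5% did. The lower strand summit of the best cluster ran from 8 to 48 reads with a median of 21 in replicate 1, and from 6 to 33 with a median of 13 in replicate 2. Clusters of these genes had a median width of 2205 bp and lay at a median of 1613 bp from the canonical 5′ end, and 49 of the 65 were in the first of the 4 equal groups of the order.

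After RPLP0 the next in order among the ribosomal proteins were RPL23A and RPL30. RPL23A had 47 and 33 reads in replicate 1 and 29 and 23 in replicate 2. RPL30 had 45 and 50 reads and 49 and 20 reads. Members without a midpoint included RPL12, RPL23, RPL36, RPS14 and RPS25. Of 37 translation factors, 18 (48.6%) held a cluster. EIF4A2 came first, then EIF1, which selects start codons, with 34 and 36 reads and 21 and 27 reads, and EIF4A3, the helicase of the exon junction complex, with 31 and 31 reads and 27 and 25 reads. EEF1A1, which brings aminoacyl-tRNA to the ribosome, had 29 and 49 reads and 38 and 17 reads.

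RNA-binding and RNA host genes followed. Of 24 hnRNP genes, 16 (66.7%) held a cluster. After HNRNPA1 came PTBP1, a splicing repressor, with 30 and 28 reads in replicate 1 and 16 and 15 in replicate 2, HNRNPDL and HNRNPH1. Of 12 SR splicing factors, 5 (41.7%) held one: SRSF1, SRSF3, SRSF5, SRSF6 and SRSF7. SRSF1 came first with 34 and 45 reads and 27 and 22 reads over 6214 bp.

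Host genes of small nucleolar RNAs, whose introns carry the guides of ribosomal RNA modification, held a cluster in 15 of 24 cases (62.5%) against 0.845% of all genes that are not protein-coding, and each of the 15 lay within 5 kb of the 5′ end. SNHG3, SNHG12 and SNHG6 came first, and SNHG1 had 91 and 34 reads in replicate 1 and 34 and 20 in replicate 2 over 6454 bp. Their clusters were wide, with a median of 3457 bp. Of 7 long noncoding RNA genes listed as nuclear, NEAT1, MALAT1 and PVT1 (42.9%) held one. All 3 lay in 1 Mb bins of raised peak density (1.71, 1.71 and 2.03 times the median), so leaving such bins out gives 0 of 7 by construction. NEAT1, the scaffold of paraspeckles, had 46 and 46 reads and 31 and 31 reads, and MALAT1, a nuclear-speckle RNA, had reverse summits of 156 and 163 reads above forward summits of 29 and 30 reads.

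Of 31 chaperone and heat shock genes, 15 (48.4%) held a cluster. HSPA8 was followed by DNAJB1, an HSP40 co-chaperone, with 34 and 43 reads in replicate 1 and 19 and 20 in replicate 2, HSPD1, the mitochondrial HSP60, with 41 and 39 reads and 19 and 23 reads, and DNAJA1. Of 24 actin, tubulin and keratin genes, 14 (58.3%) did, with KRT8 counted only through the cluster at KRT18. TUBA1B, an alpha-tubulin, had reverse summits of 92 and 58 reads above forward summits of 28 and 21 reads, and CFL1, the actin-severing cofilin, had 23 and 24 reads and 19 and 20 reads. Of 33 proteasome and ubiquitin genes 11 (33.3%) held one, among them PSMC5, an ATPase of the proteasome cap, with 39 and 48 reads and 15 and 21 reads. Of 20 genes of glycolysis and lactate handling GAPDH, ENO1, LDHA and TPI1 did (20.0%), and of 35 genes of RNA polymerase II and its elongation factors 8 (22.9%) did, led by POLR2A, its largest subunit, with 15 and 22 reads and 13 and 16 reads.

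**Figure D4:**
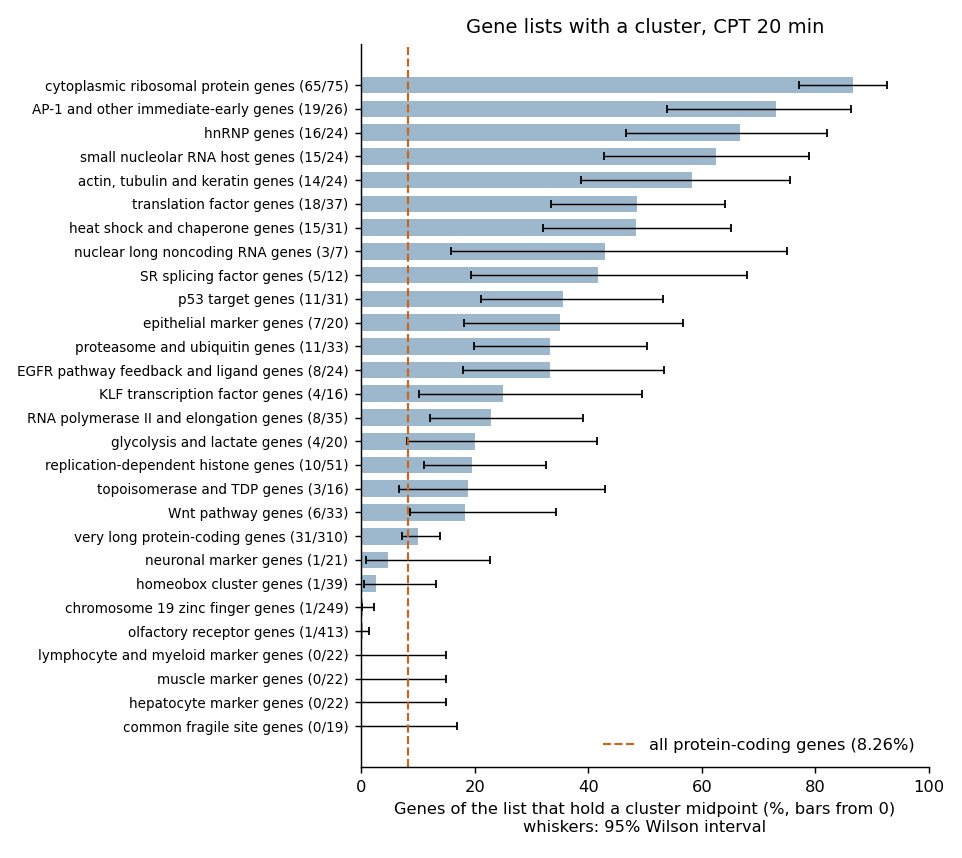
Share of the genes of each list that held a cluster midpoint (%, x axis, bars from 0, whiskers the 95% Wilson interval), with counts beside the list names on the y axis. The dashed line is the share of all protein-coding genes, 8.26%, and the ribosomal protein genes lie at 86.7% while hepatocyte, muscle, blood cell and fragile site lists lie at 0.

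Genes of rapid transcriptional induction were hit in 19 of 26 cases (73.1%, 53.9 to 86.3), 17 of them within 5 kb of the 5′ end. The list holds AP-1 subunits and other immediate-early genes, and the members with clusters included FOS, FOSB, FOSL1, FOSL2, JUN, JUNB, ATF3, MYC, SRF and NR4A1. After ZFP36L1 and EGR1 came NR4A1, an orphan nuclear receptor, with 41 and 39 reads in replicate 1 and 23 and 23 in replicate 2, and IER2 with 29 and 67 reads and 19 and 24 reads. JUND, EGR2, EGR3, IER3, IER5, ZFP36L2 and KLF10 held none.

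Of 24 ligands and feedback genes of EGF receptor signalling 8 (33.3%) held a cluster, all within 5 kb of the 5′ end. Those of DUSP1, DUSP4, DUSP5 and DUSP6 encode phosphatases that switch MAP kinases off. ERRFI1 was followed by DUSP5 with 28 and 56 reads in replicate 1 and 25 and 39 in replicate 2, EREG, the ligand epiregulin, with 33 and 36 reads and 18 and 18 reads, and PHLDA1. Of 16 KLF transcription factor genes KLF2, KLF3, KLF4 and KLF6 (25%) held one. Of 31 p53 target genes 11 (35.5%) did, and TNFRSF10B, a TRAIL death receptor, stood first with 43 and 59 reads and 18 and 50 reads, followed by PMAIP1, the BH3-only protein NOXA, with 20 and 25 reads and 29 and 15 reads, then GDF15 and BBC3. CDKN1A and MDM2 were not among the 11.

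Of 16 genes of topoisomerases and of the enzymes that remove trapped topoisomerases, ERCC1, TOP2A and TOP1MT held a midpoint (18.8%), none of them 0 to 5 kb from the outermost 5′ end of the gene, though that of TOP1MT lay 1175 bp from the canonical one. The cluster counted for ERCC1 was the one at FOSB, which the longest annotated form of ERCC1 overlaps. TOP1 itself held none. Of 33 Wnt pathway genes 6 (18.2%) did: CSNK1A1, MYC, TCF7L2, RNF43, CD44 and LRP6. CSNK1A1, a kinase that primes beta-catenin for destruction, had 25 and 25 reads in replicate 1 and 13 and 15 in replicate 2. Of 51 replication-dependent histone genes 10 (19.6%) did. In replicate 1 alone 15 of the 51 (29.4%) held a site, below the 68.9% of all protein-coding genes. In replicate 2 alone 14 (27.5%) did, against 30.5%. After H2AC15 the first were H2AC11, with 48 and 25 reads and 29 and 17 reads, and H2BC5, with 31 and 29 reads and 36 and 16 reads.

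Of 20 epithelial marker genes, the markers of the labelled cell type, 7 (35.0%) held a midpoint: KRT8, KRT18 and KRT19, keratins of simple epithelia, EPCAM, CLDN4, GRHL2 and ESRP1. The other 13 held none, among them CDH1, the adhesion protein E-cadherin, and CDX1, CDX2, HNF4A, GPA33 and VIL1, which mark intestinal epithelium. The same cluster counted for KRT8 and KRT18, 22 and 21 reads in replicate 1 and 15 and 14 in replicate 2, lay 542 bp from the 5′ end of KRT18. It lay at −44584 bp from the canonical 5′ end of KRT8, which was counted through a long annotated form. None of 22 hepatocyte, 22 muscle and 22 lymphocyte and myeloid marker genes held a cluster, and of 21 neuronal ones SYT1, a synaptic vesicle protein, did (4.76%), at 23865 bp from its canonical 5′ end with 18 and 60 reads and 21 and 48 reads. Of 39 homeobox cluster genes HOXB3 did (2.56%), of 413 olfactory receptor genes OR51B5 (0.242%), through a long form that also overlaps HBE1 and HBG2, and of 249 zinc finger genes of chromosome 19 ZNF317 (0.402%). In replicate 1 a site fell in 16 of 20 epithelial (80%), 17 of 21 neuronal (81.0%), 12 of 22 hepatocyte, 11 of 22 muscle and 8 of 22 lymphocyte and myeloid marker genes, where 68.9% of all protein-coding genes held one. In replicate 2 the counts were 8 (40.0%), 7 (33.3%), 4, 5 and 1, where 30.5% of all protein-coding genes held one.

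Genes at common fragile sites are very long genes in which replication stress opens gaps and breaks. All 19 of the listed ones held a site in replicate 1 and all 19 in replicate 2, against 68.9% and 30.5% of all protein-coding genes. None held a cluster, with an interval of 0 to 16.8% that takes in the 8.26% of all protein-coding genes. Of the 310 protein-coding genes of at least 500 kb, all 310 held a site in replicate 1 and 293 (94.5%) in replicate 2, so the 19 lay near these long genes in each library. Of the 310, 31 (10.0%) held a cluster, and in 2 of them (0.645%) the cluster lay 0 to 5 kb downstream of the 5′ end. The clusters of these long genes had a median lower summit of 7 reads in both libraries, and 3 of the 31 were in the first of the 4 groups of the order. DLGAP1, a scaffold protein of synapses, led them with 79 and 32 reads in replicate 1 and 25 and 30 in replicate 2.

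The share of genes hit ran from 5.03% to 10.0% over classes of gene length, while the density of clusters fell with length. A cluster was held by 134 of 2663 genes under 5 kb (5.03%), 430 of 5349 of 5 to 20 kb (8.04%), 723 of 7711 of 20 to 100 kb (9.38%) and 270 of 3196 of 100 to 500 kb (8.45%). Per Mb of gene there were 22.8 clusters in the shortest class, 9.77 and 2.82 in the next, 0.677 in genes of 100 to 500 kb and 0.174 in those of 500 kb and over.

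The genes with the most clusters were PDE4DIP (16), HMGA2 (10), TCF7L2 (10), PCDH7, DCBLD2 and NBPF1 (9 each), and HNRNPA2B1 and NSMCE2 (8 each). HMGA2 encodes an architectural chromatin protein, TCF7L2 the transcription factor of Wnt signalling, and HNRNPA2B1 an hnRNP. TCF7L2, NSMCE2, HMGA2, DCBLD2 and NBPF1 lay in bins with 2.64, 2.46, 1.8, 1.89 and 1.60 times the median peak density, whereas PDE4DIP, PCDH7 and HNRNPA2B1 lay at 0.974, 1.2 and 1.01. HNRNPA2B1 held its 8 clusters in 30.4 kb, which is 26.3 per 100 kb, and PCDH7 its 9 in 426 kb.

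Outside protein-coding genes, 269 clusters (9.64%) were assigned to a long noncoding RNA and 456 (16.3%) to no gene. The first of the noncoding ones was in LINC02901, at chr6:159289509-159292491, with 185 and 146 reads in replicate 1 and 165 and 153 in replicate 2, higher in replicate 2 on the forward strand. LINC02832 had 45 and 52 reads and 80 and 55 reads and was higher in replicate 2 on both strands. SNHG12 had 42 and 46 reads and 32 and 35 reads. The cluster in MTCO1P12, a copy of a mitochondrial gene on chromosome 1, had 341 and 861 reads and 56 and 180 reads, and was not checked against a blacklist. The first cluster with its midpoint in no gene was at chr19:15945837-15948718, with 46 and 35 reads and 41 and 27 reads. Its left part overlapped the long noncoding RNA genes UCA1, which ends at 15947138, LINC01764 and ENSG00000288618.

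Clusters beside large gaps of the assembly were a set of their own. There were 166 within 1 Mb of a run of at least 1 Mb of unknown bases (5.95%), of which 6 (3.61%) had the midpoint in a protein-coding gene. The first 5 of them in order had higher summits on both strands and in both libraries than each of the 20 protein-coding genes above. At chr1:121482707-121485456, next to a centromere gap, the summits were 6917 and 9731 reads in replicate 1 and 4298 and 5021 in replicate 2, and at chr7:61967785-61970647 they were 5291 and 8150 reads and 4595 and 4570 reads.

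Clusters were unevenly spread over chromosomes. Chromosome 17 held 317 (11.4% of clusters on 2.90% of bases, 4.07 per Mb), chromosome 19 had 2.56 per Mb, chromosome 8 held 290 (2.03 per Mb), and chromosomes 18 and 13 were lowest with 0.388 and 0.418 per Mb. Peaks of any kind were also denser on chromosomes 17 and 8, with 663 and 556 peaks per Mb in replicate 1 and 289 and 317 in replicate 2, against 404 and 201 in the median 1 Mb bin. Over the 22 chromosomes clusters per Mb had a Spearman correlation of 0.83 with the peak density of replicate 1, 0.47 with that of replicate 2 and 0.67 with protein-coding genes per Mb, values that share their libraries and are given as a description.

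In 137 bins of 1 Mb (5.09% of bins), peak density was at least 1.5 times the median in both libraries. Of these, 68 were on chromosome 8, 31 on chromosome 17, 22 on chromosome 10 and 8 on chromosome 16. They held 739 clusters (26.5%), or 5.39 per bin against 0.772 in other bins. The choice of bins ties these values together, because clusters are made of the same peaks by which the bins were chosen. The share 0 to 5 kb downstream of a 5′ end was 24.4% (21.4 to 27.6) there and 40.1% (38.0 to 42.3) elsewhere, so the position at 5′ ends was more marked outside them. Copy number of these regions in the cells and breakage per copy cannot be told apart in these counts.

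**Figure D5:**
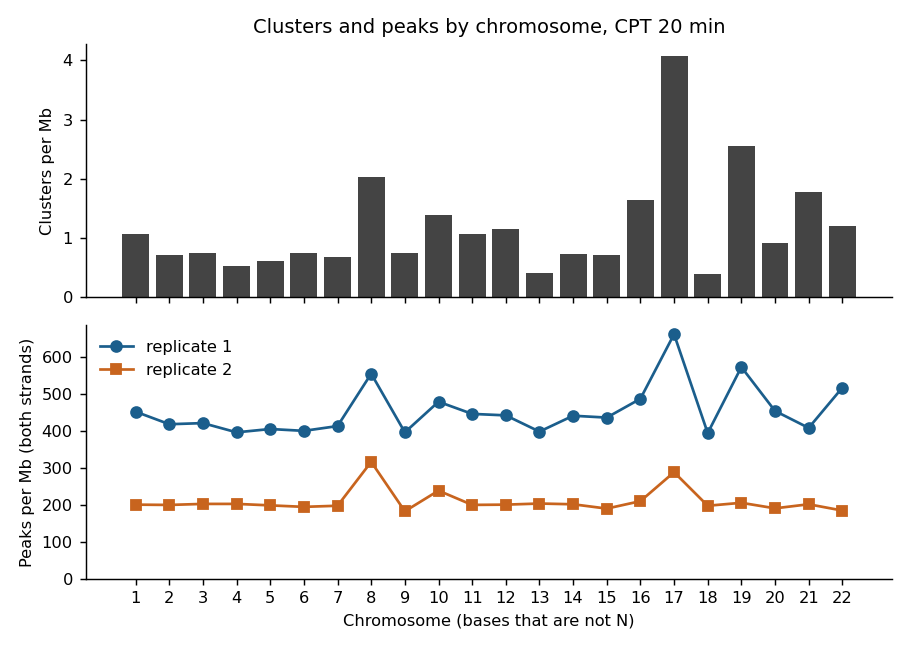
Clusters per Mb (top, bars from 0) and peaks per Mb of both strands in replicates 1 and 2 (bottom) for chromosomes 1 to 22 (x axis). Chromosome 17 has 4.07 clusters per Mb and, with chromosome 8, stands above its neighbours in peak density in both libraries.

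The base composition of clusters lay near that of the genome. The 300 bp at the midpoint had a median GC content of 42.0% (quartiles 36.0 and 49.7) against 40.0% in all 300 bp tiles. The sites not shared were at 43.7% in replicate 1 and 36.7% in replicate 2, so the libraries differed from each other by more than clusters differed from the genome. Clusters 0 to 5 kb downstream of a 5′ end had 44.7% against 47.3% in tiles at the same positions. Their median excess of G over C on the sense strand, as a share of both, was 0.061 against 0.031 in tiles, and 0.037 and 0.047 in the downstream sites of replicates 1 and 2 that were not shared. The pattern of 4 runs of at least 3 G with 1 to 7 bases between runs, searched on both strands, was in 4.59% of all clusters against 3.24% of all tiles, and in 6.18% of the downstream clusters against 10.4% of tiles at the same positions, so its direction differed between the whole and the downstream set.

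A break with 2 ends gives a reverse summit to the left of the forward one. This order held for 53.4% (51.8 to 54.9) in replicate 1 and 56.9% (55.1 to 58.7) in replicate 2 of overlapping pairs in clusters, and for 46.1% (45.7 to 46.5) and 47.6% (46.7 to 48.5) of other pairs. The site rule bears on this contrast. A site runs from the start of the reverse peak to the end of the forward peak, so pairs with the reverse peak on the left give wider sites. Wider sites overlap a site of the other library more easily, and the part of this in the contrast was not tested. The end facing upstream in the assigned gene was the higher one somewhat more often in both libraries. Among clusters in a protein-coding gene, leaving out ties, the end facing downstream was higher in 44.4% on plus-strand genes and 41.7% on minus-strand genes in replicate 1, and in 47.4% and 43.0% in replicate 2. The median log2 ratio of the downstream over the upstream end was −0.10, −0.16, 0.00 and −0.13 in the same order.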

How the data were processed

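END-seq libraries of HCT116 cells given CPT for 20 min were analysed (2 biological replicates, with a forward and a reverse peak list each), and the libraries of the shorter treatment were used only for the total number of sites. Per the submitters' processing notes, the authors used Trim Galore, Bowtie2, SAMtools and MACS2 with hg19. Per the study's methods, properly paired reads of high mapping quality were kept with duplicates, reads were split by strand of the first mate, and peaks were called per library and strand with the untreated library as input and no local background. The study also left out peaks that overlapped blacklisted regions of hg19. No blacklist was applied here, so clusters in such regions may be among those described. The study further normalised reads in peaks to library size and spike-in, and kept peaks raised over untreated cells in a differential test. No such step was made here, so the clusters are not the study's set of CPT-induced clusters. The deposited peak lists give, per peak, a fold enrichment over the expected pileup, −log10 p-value and −log10 q-value computed by the authors' peak caller, and a score that the authors' caller derived from −log10 q. The fold is (summit height + 1)/(expected height + 1), from which whole summit heights in reads were recovered. The study's supplement reports read numbers of the END-seq libraries, which were not used here. Replicate 2 had the fewer and lower peaks.

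Sites, clusters and gene positions were computed with Python 3.11.15, numpy 2.4.6, pandas 2.3.3 and bedtools 2.31.1 (figures with matplotlib 3.10.9), on chromosomes 1 to 22. Genes came from GENCODE release 44 lifted to GRCh37. Genome backgrounds were read at a 100 bp grid or in 300 bp tiles without unknown bases. Shares have 95% Wilson intervals. With 2 libraries of 1 group no test between groups was run, and clusters share their libraries.

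The named genes are the protein-coding genes of the first 20 clusters in the order, the first 5 clusters in noncoding genes, in no gene and near large gaps, the 8 genes with the most clusters, and up to 4 genes a list. Other genes named to complete a count or a list were chosen after their values were seen. Members and lists were chosen with earlier results of these data known. Alternatives were stricter q, list length, overlap, pairing distance, 5′ ends, regions left out and either library alone. A few genes and 1 sequence that these rules choose are not reported here. The scripts were tested on simulated peaks with known sites.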

Additional observations from a re-analysis of the deposited data

Results flagged for a closer look

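Chromosomes 1 to 22 were described above, and sites shared by both CPT20 replicates also occurred elsewhere. There were 134 such clusters on 18 other sequences. Of these, 16 lay on chromosome X and 118 on the rest, which are mostly unplaced or unlocalised contigs of the assembly, with 1 on the mitochondrial sequence. They are given because they hold sites of both libraries outside the sequences described above.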

How the results depend on the processing

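With peaks of −log10 q of at least 3 the share of clusters 0 to 5 kb downstream of a 5′ end was 39.9%. At a minimum of 10, 332 clusters remained by number, 70.8% of them in a gene and 42.8% downstream, in 200 protein-coding genes and 89 list members, and the reverse summit was left in 60.8% of pairs, against 55.1% as the mean of both libraries. With lists cut to the length of the shortest one, 85% were in a gene and 40.1% downstream. With 50% overlap of each site required, there were 1030 clusters, 82.1% in a gene, 692 protein-coding genes, 130 list members and 60.9% with the reverse summit left. Without regions near gaps or chromosome ends the genic and downstream shares were 87.0% and 38.2%, and without chromosomes 8, 10, 16 and 17 they were 85.4% and 39.4%. Without bins of raised peak density, chosen after seeing the data, 40.1% were downstream. Counting protein-coding genes only, 72.7% were genic. With the 5′ ends of all transcripts 43.8% were downstream (5.36% of bases), and with canonical 5′ ends, chosen after seeing the data, 43.2% were downstream and 6.20% upstream. Each library alone (leave-one-out) gave 18506 to 84786 sites, 70.9 to 71.3% genic, 9.85 to 12.8% downstream, 4.76 to 5.53% upstream, 5861 to 13244 protein-coding genes, 371 to 524 list members and a GC content of 37.3 to 43.7%. The summit order turned in single libraries, to 49.5% without replicate 1 and 46.5% without replicate 2, since all sites then count and not those shared. The causes of the other changes were not tested. The other 47 of these values kept within their limits, while of the values for single lists and the named genes 95 moved and 205 did not. The share of ribosomal protein genes with a cluster, 86.7%, was 34.7% at −log10 q of at least 10 and 41.3% with 50% overlap, below the 37.5% and 50% of small nucleolar RNA host genes. Under these settings 1.04% and 3.60% of all protein-coding genes held a cluster, against 8.26%. Immediate-early genes went from 73.1% to 30.8% and 34.6%, chaperones from 48.4% to 19.4% and 12.9%, and translation factors from 48.6% to 16.2% and 40.5%. Translation factors were at 24.3% without clusters on chromosomes 8, 10, 16 and 17. The genes of these chromosomes stayed in the total there, so members on them counted as not hit by construction. The KLF, Wnt and RNA polymerase II lists held 0 at −log10 q of at least 10. No paired analysis was possible because no untreated peak list is analysed here and 1 group of 2 libraries was described. Total depth was not used here, so its part in the number of shared sites was not tested.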
